A study of Arabidopsis thaliana with 18 samples.

Results

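The earliest sampled response to DUO1 was measured 6 h after its induction, on 3 Affymetrix ATH1 arrays of induced and 3 of not induced Arabidopsis thaliana seedlings, 6 of the 18 arrays in the series. The 6 arrays were taken by the condition and time in their titles, and all 22746 probe sets other than the array's control probe sets were tested. Every plant, induced or not, was of the Col-0 background, was labelled as carrying a T-DNA, and held DUO1 in pMDC7, a vector from which an oestrogen switches on the inserted gene in every tissue. Seedlings were grown on hygromycin plates without added sugar for 12 days in constant light before treatment, and RNA came from whole plants, so each signal averages over all organs. The other 12 arrays hold the induced and the not induced plants of 12 h and 24 h, with 3 arrays in each of the 6 groups. No group received the inducer without the DUO1 construct, so responses to DUO1 and to the inducer cannot be told apart here. How many transgenic lines were used, and whether replicates were separate cultures, is not given in the sources used here, and the p-values then measure no more than the spread between arrays.

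The MYB transcription factor DUO1 belongs to the male germline of flowering plants and acts in the generative cell and in the sperm cells that descend from it. It binds promoters of sperm cell genes and switches them on, among them genes for a sperm histone and for membrane proteins of gametes. These genes are normally silent in leaves and roots, so a seedling in which DUO1 is switched on gives an almost empty background for them. No tested probe set was named DUO1 in the annotation used, so its own transcript could not be identified, even if a probe set without a gene name reports it. The induction was therefore read without a signal known to be that of DUO1.

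Signals are MAS5 intensity values on a linear scale. The background level of an array was taken from its 27 probe sets for bacterial transcripts, as the highest of their signals, and lay between 3.302 and 10.1 on the 3 induced arrays, and between 5.30 and 7.10 on the 3 not induced arrays. A probe set is called clear of background where its signal exceeded that level on all 6 arrays, which held for 15454. On 1 array, 72.3% to 83.6% of probe sets lay above background, and the median signal was 34.3 to 37.6. Where a group lay at or below background on all 3 arrays, the fold change is given as a lower bound against the background level.

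Control probe sets set 2 of the 3 induced arrays apart. The hybridisation controls, bacterial and phage transcripts added before hybridisation, had a mean log2 signal of 8.94, 8.07 and 7.94 on induced replicates 1, 2 and 3, against 8.80, 8.75 and 8.49 on the not induced arrays. The probe set for 25S ribosomal RNA read 2013, 550.0 and 233 on the induced arrays, against 2891, 2036 and 2626 on the not induced arrays. Induced replicate 1 therefore resembled the not induced arrays in its controls, and induced replicates 2 and 3 did not. Of the 63 named probe sets that passed at 6 h, 22 lost their call with the hybridisation controls as a covariate, 44 with the 25S rRNA signal as a covariate and 47 with induced replicate 1 as the only induced array. The 12 genes and probe sets said below to have kept their call in all alternatives kept it in these 3 fits too, and each of the other 51 lost it in at least 1 of the alternatives run. Each named gene said below to have lost its call without single arrays also lost it with the 25S rRNA covariate. The adjusted p values given there are those of the single-array fits, and other fits could give higher ones.

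**Figure D1:**
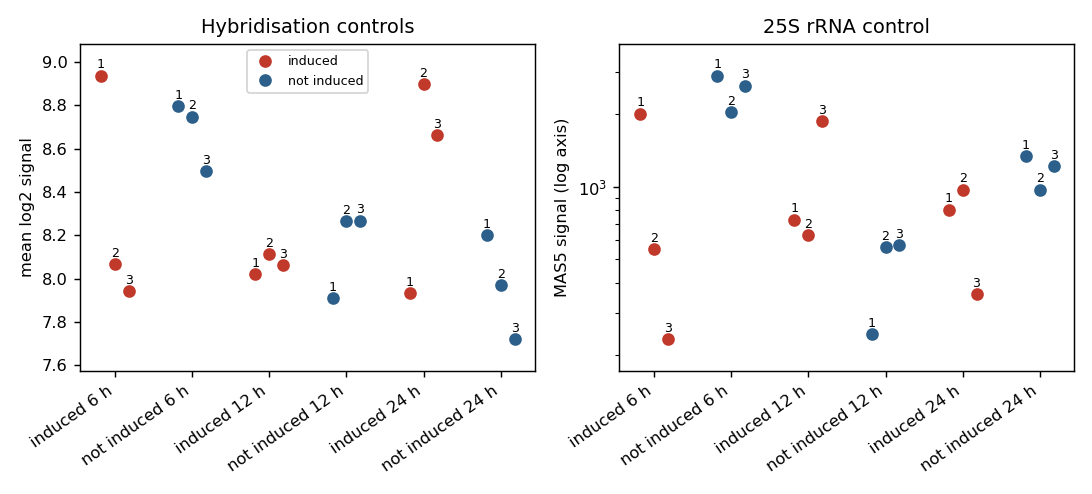
Mean log2 signal of the hybridisation controls (left) and MAS5 signal of the 25S rRNA control on a log axis (right) for all 18 arrays, each point an array with its replicate number. At 6 h, induced replicate 1 lies with the not induced arrays, while induced replicates 2 and 3 lie lower in both panels.

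The first question is how many genes had responded by 6 h. By limma with Benjamini-Hochberg adjustment over all probe sets, 220 probe sets passed an adjusted p of 0.05, which is 0.967% of those tested. Of these, 130 rose (0.572%) and 90 fell (0.396%). For all 130 rises every induced array lay above every not induced array, and for all 90 falls every one lay below. Across all probe sets 14.7% had groups that did not overlap. Groups that do not overlap are thus shared by every call at 6 h and are no added support for the genes below. The response was smaller than at the later times, where 1102 probe sets (4.84%) passed at 12 h and 1894 (8.33%) at 24 h. When every array was shifted to 1 common median, the count was 222, but the split turned to 89 rises and 133 falls, so the balance between rises and falls at 6 h depends on the scaling. The log2 change of the median probe set was 0.04 with the deposited scaling.

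Of the 220 changed probe sets 168 were clear of background, as were 15454 of all 22746 tested. Among probe sets clear of background 1.09% changed, close to the 0.967% of all probe sets. The 168 were 95 rises (0.615%) and 73 falls (0.472%). The rises clear of background had a median fold of 1.75 and the highest was 3.67-fold, and 28 of the 95 reached 2-fold. The falls had a median fold of 1.64, the steepest was 4.59-fold, and 25 of the 73 reached 2-fold. The falls lay at brighter signals than the rises, with a median signal of 127 against 59.6. A further 14 rises came from probe sets above background on all 3 induced arrays and on 0 of the not induced arrays, and 8 from probe sets that were above it on 1 or 2 of those. The last 13 rises were not above background on every induced array, and 4 falls were not above it on every not induced array. A gene name was given by the annotation to 73 of the 130 rises and 44 of the 90 falls, together 0.866% of the probe sets with 1 gene.

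**Figure D2:**
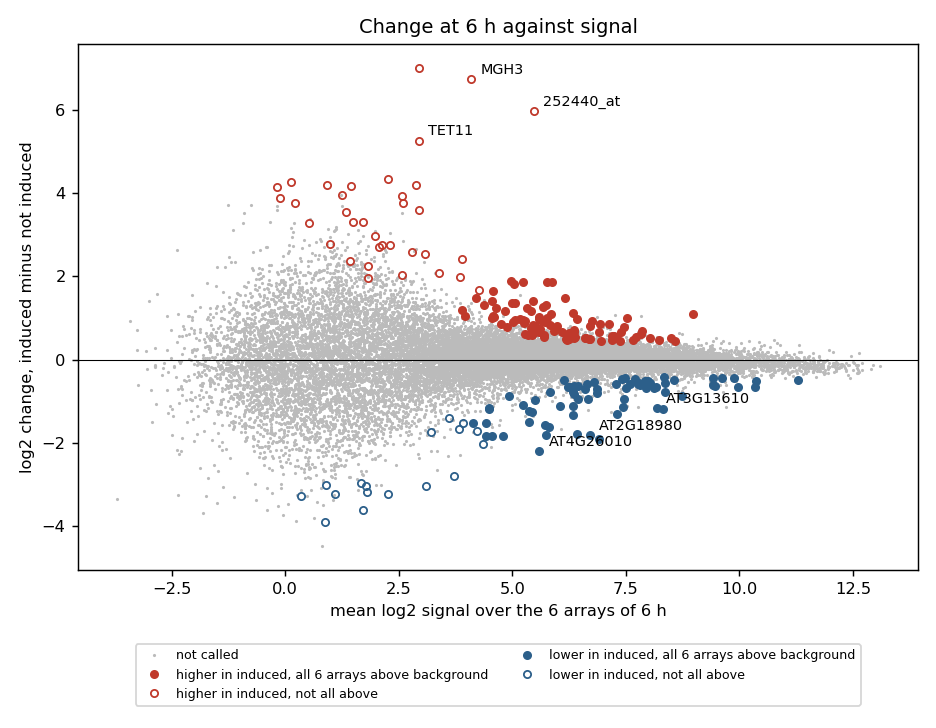
Log2 change at 6 h, induced minus not induced, against the mean log2 signal over the 6 arrays, for all 22746 probe sets. Filled points are the 95 rises and 73 falls clear of background, which stay within 4.59-fold, and open points are changes where at least 1 array lay at background, which include the largest fitted rises, MGH3 and TET11 among them.

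The count moved with single arrays and with the control probe sets. Without induced replicate 3 it was 98, and without induced replicate 2 it was 124, while leaving out any other array of 6 h gave 147 to 262. With the hybridisation controls as a covariate 137 probe sets passed, of which 121 were among the 220 with the same sign, and with the 25S rRNA signal as a covariate 58 passed, of which 50 were. With induced replicate 1 as the only induced array of 6 h, 126 passed and 48 were shared. When only the 6 arrays of 6 h were fitted, the count was 67.

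The rise with the smallest adjusted p among named genes was that of MGH3 (AT1G19890, probe set 255815_at), which encodes a histone H3 variant of sperm cells and is a known target of DUO1. Its signal was 144, 187 and 202 on the induced arrays, against 4.75, 0.75 and 1.28 on the not induced arrays. All 3 not induced values lay at background and all 3 induced values far above it, so the rise was at least 27.6-fold (limma, adjusted p = 2.78e-06). MGH3 kept its call in all 18 alternatives, with an adjusted p of at most 0.0021.

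TET11 (AT1G18520, probe set 261670_at) encodes a tetraspanin, a membrane protein with 4 membrane-spanning segments, and is another target of DUO1 in the literature. It read 31.4, 51.1 and 66.7 on the induced arrays, against 0.49, 8.68 and 0.455 on the not induced arrays. The groups did not overlap, and not induced replicate 2 was the only not induced array above its background level. The fitted log2 change of 5.25 ± 0.86 SE (adjusted p = 0.0026) rests on not induced signals below background and is not a measured size, and with such signals set to the background level it was 2.66. TET11 lost its call with the 25S rRNA covariate, with induced replicate 1 alone and when only the arrays of 6 h were fitted (adjusted p up to 0.147). These 2 genes were the measured members of a list of 12 DUO1 targets from the literature, and both rose.

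The third measured gene of the sperm cell list, the tetraspanin gene TET12 (AT5G23030), did not pass (adjusted p = 0.283). It read 2.25, 0.43 and 6.62 on the induced arrays, against 16.2, 8.64 and 5.70 on the not induced arrays, and the groups overlapped. The other entries of both lists, such as the gamete fusion genes GEX2 and HAP2, were not named by a probe set with 1 gene, so their signals could not be identified here. Thus 2 of 3 measured sperm cell genes rose at 6 h, against 0.572% of all probe sets, and both lists were written with earlier results of these data known.

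Genes of other reproductive cell types were counted in the same way. Of 9 measured genes of the pollen vegetative cell and the pollen tube, 0 passed, and 2 lay at or below background on all 6 arrays. Their summed signal was 167 to 186 on the induced arrays, against 137 to 152 on the not induced arrays, and most of it came from the reproductive actin gene ACT11. ACT11 averaged 129 ± 12.9 in induced and 104 ± 9.98 in not induced plants (SD, n = 3 each; limma, adjusted p = 0.277). Of 2 tapetum genes and of 1 gene of the egg and central cell list, 0 passed. With 0.967% of all probe sets passing, a count of 0 in lists this short is close to the background and is no result about these cell types.

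Among probe sets without a gene name, 2 had rises with a smaller adjusted p than that of MGH3. Probe set 252440_at read 293, 404 and 372 on the induced arrays, against 6.96, 6.98 and 3.70 on the not induced arrays, of which 2 lay just above background (fitted log2 change 5.97 ± 0.47 SE, and 5.65 with signals below background set to it, adjusted p = 5.34e-07). Probe set 249468_at read 77.8, 90.4 and 95.9, against 1.77, 0.29 and 0.61 in not induced plants, all 3 at background, a rise of at least 13.8-fold (adjusted p = 5.12e-07). Both kept their calls in every alternative that held them.

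Several genes outside the germline lists were also raised out of the background. AT1G15190 read 17.0, 23.3 and 25.1 on the induced arrays, against 1.098, 1.05 and 1.07 on the not induced arrays, a rise of at least 3.37-fold (adjusted p = 2.24e-05) that held in all 17 alternatives. NRT2.5, a high-affinity nitrate transporter gene known for its expression under nitrogen starvation, read 16.6, 34.9 and 21.7, against 1.38, 0.66 and 3.83 in not induced plants, at least 3.64-fold higher (adjusted p = 0.00183). SBT4.13, a subtilase gene that encodes a serine protease, read 19.2, 26.8 and 21.8, against 3.62, 0.35 and 3.54 in not induced plants, at least 3.51-fold higher (adjusted p = 0.0113). In all 3 genes every induced array lay above every not induced array, and all not induced signals lay at background, so no size beyond the lower bounds is measured. NRT2.5 was the 1 measured gene of the nitrate list and the 1 rise among 12 nitrate transporter genes, and SBT4.13 the 1 rise among 7 subtilase genes, against 0.572% of all probe sets. NRT2.5 lost its call with the 25S rRNA covariate and with induced replicate 1 alone, and SBT4.13 also with only the 6 h arrays fitted and without induced replicate 2 (adjusted p = 0.0543) or induced replicate 3 (adjusted p = 0.051).

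**Figure D3:**
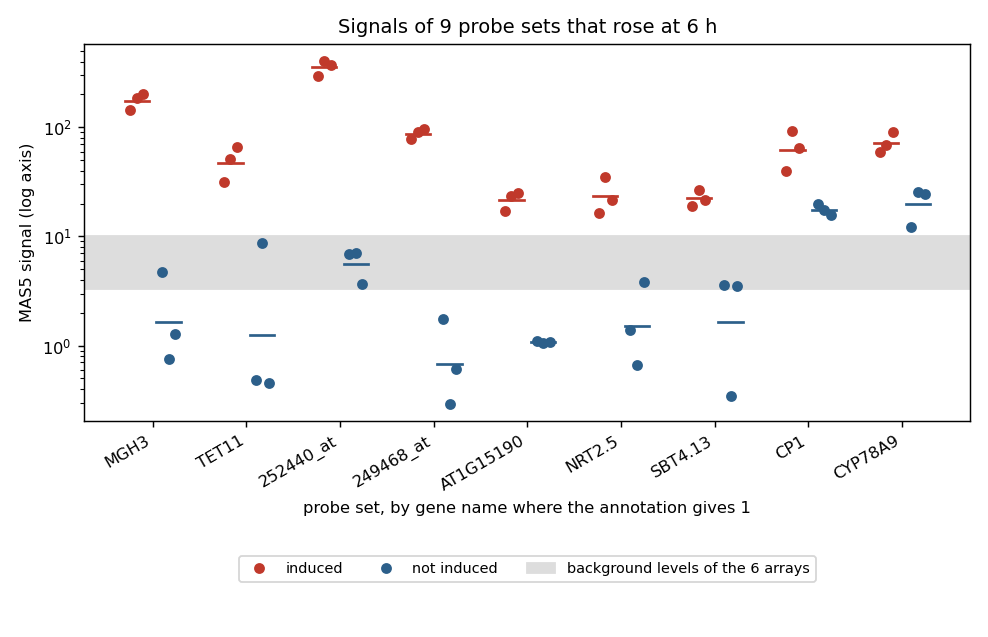
MAS5 signals on a log axis of 9 probe sets that rose at 6 h, on the 3 induced (left of each pair) and 3 not induced arrays, with bars at the geometric mean and the range of the 6 background levels in grey. For each probe set the 3 induced arrays lie above the 3 not induced arrays, and only CP1 and CYP78A9 have all their not induced signals above the grey band.

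A further 3 named rises left the background on some not induced arrays only. AT5G08480 read 27.3, 22.1 and 31.9 on the induced arrays, against 3.83, 6.49 and 0.44 on the not induced arrays. AT3G01430 read 39.3, 33.4 and 30.8, against 11.7, 15.9 and 1.43 in not induced plants, and AT5G42330 read 38.3, 37.0 and 28.7, against 14.6, 16.4 and 5.24. In the last 2 genes the not induced replicate 3 was far below the other not induced arrays, and adjusted p values for the 3 genes were 0.026, 0.0409 and 0.0125. AT5G08480 lost its call without induced replicate 1, 2 or 3 or not induced replicate 3 (adjusted p up to 0.122), AT3G01430 without any 1 of the induced arrays (up to 0.123), and AT5G42330 without induced replicate 2 (0.0564).

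Another 5 calls rested largely on signals at background. AT3G12000, AT4G09410 and AT2G04600 had mean induced signals of 3.84, 3.55 and 4.36, above background on 1 of the 3 induced arrays each, and AT1G73050 one of 10.1, above it on 2. None of the 4 was above background on a not induced array. With every signal below background set to that level, their log2 changes became -0.07, -0.11, -0.05 and 0.77, and 0 of the 4 passed, and no rise was measured for them. The fifth was the fall of AT1G33770, which averaged 0.74 in induced and 5.90 in not induced plants, was above background on 1 of the 6 arrays, and had a log2 change of -0.31 after that step (adjusted p = 0.831). AT3G12000 lost its call without any 1 of the 6 arrays (adjusted p up to 0.171), AT2G04600 without any but not induced replicate 1 (up to 0.118), AT4G09410 without any but not induced replicate 1 (up to 0.119), and AT1G33770 without induced replicate 1 or 3 or not induced replicate 1 or 3 (up to 0.0951).

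Among genes already expressed, the steepest rise was that of AT1G08050, at 58.8, 59.9 and 60.5 on the induced arrays, against 18.0, 13.3 and 17.9 on the not induced arrays. That is a 3.67-fold rise (adjusted p = 1.74e-05), it held in all 18 alternatives, and the 3 induced arrays lay within 2 units of each other. CYP78A9, a cytochrome P450 gene whose overexpression is known to enlarge organs and fruits, read 59.1, 68.4 and 91.5, against 12.2, 25.4 and 24.6 in not induced plants (3.65-fold, adjusted p = 0.000268). CP1, a cysteine protease gene, read 39.5, 93.0 and 64.6, against 19.8, 17.5 and 15.8 in not induced plants (3.52-fold, adjusted p = 0.000268). The groups were apart in both genes, with the smallest induced signal of CP1 on replicate 1. Both lost their call in 1 alternative, with induced replicate 1 alone (adjusted p = 0.0509 and 0.0609).

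The other 7 of the 10 steepest rises with a gene name clear of background were AT3G05920, AT5G51310, AT5G50170, AT5G54530, AT4G38380, AT2G31150 and AT1G02810, with log2 changes from 1.16 to 1.48. AT5G54530 was the brightest, at 79.1, 74.0 and 84.3 on the induced arrays, against 45.3, 21.2 and 36.6 on the not induced arrays (log2 change 1.27 ± 0.20 SE, adjusted p = 0.00134). AT5G50170 read 45.6, 57.9 and 50.1, against 14.4, 26.5 and 20.6 in not induced plants (1.36 ± 0.23 SE, adjusted p = 0.00352). In all 7, as in every rise called at 6 h, the lowest induced array lay above the highest not induced array. AT5G51310 lost its call without induced replicate 2 or 3 or not induced replicate 1 or 2 (adjusted p up to 0.0659), AT4G38380 without any but not induced replicate 3 (up to 0.176), and AT2G31150 without any but not induced replicate 3 (up to 0.123). AT3G05920, AT5G54530, AT1G02810 and AT5G50170 lost theirs with only the 6 h arrays fitted and with induced replicate 1 alone, and AT5G50170 also with the 25S rRNA covariate (adjusted p up to 0.0954, 0.0658, 0.114 and 0.1535).

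In the glycoside hydrolase family, whose enzymes cut the bonds of sugars, 2 of 34 probe sets rose (5.88%, against 0.572% of all probe sets) and 0 fell. BGAL16, a beta-galactosidase gene, read 28.6, 34.2 and 37.4 on the induced arrays, against 15.6, 17.445 and 16.6 on the not induced arrays (2.01-fold, adjusted p = 0.0215). GH9C2, an endoglucanase gene, read 504, 411 and 441, against 354, 279 and 357 in not induced plants (1.37-fold, adjusted p = 0.0476). As in every call at 6 h, the groups did not overlap in either gene. BGAL16 lost its call without induced replicate 2 or 3 or not induced replicate 1 or 3 (adjusted p up to 0.133), and GH9C2 without any but not induced replicate 3 (up to 0.165).

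Several of the falls were in class III peroxidases, secreted haem enzymes that use hydrogen peroxide to cross-link or loosen cell walls and of which many are expressed in roots. Of 73 loci of the family 55 were measured, and 9 fell while 0 rose (16.4%, against 0.396% of all probe sets). The median log2 change of the 55 was -0.20, against 0.04 over all probe sets, and 27 of the 35 clear of background were negative. The median was -0.03 with the 25S rRNA covariate, -0.08 with induced replicate 1 alone and -0.50 without not induced replicate 2. The count of falls was 4 with the covariate, 4 with induced replicate 1 alone, 5 without induced replicate 3 and 6 to 11 under the other alternatives. This list of loci was written after values had been seen. The family as first defined, by gene name, held 7 probe sets, of which 1 fell (14.3%) and 0 rose, with a median log2 change of -0.15. Medians as low also occurred in short families with 0 calls, at -0.31 in 7 WRKY and -0.27 in 10 xyloglucan endotransglucosylase probe sets. Others did not shift that way, such as 53 for UDP-glycosyltransferases at 0.03. Whole seedlings were sampled, so fewer cells of a type and less RNA per cell cannot be told apart.

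AT2G18980 had the smallest adjusted p of all falls named here, with signals of 56.2, 63.3 and 49.2 on the induced arrays, against 223, 166 and 205 on the not induced arrays (log2 change -1.81 ± 0.12 SE, adjusted p = 1.22e-07). AT4G26010 fell the furthest of the named genes clear of background, at 22.0, 28.4 and 18.5, against 99.3, 90.0 and 125 in not induced plants (-2.20 ± 0.24 SE, adjusted p = 2.93e-05). AT4G30170 read 54.2, 34.2 and 52.8, against 177, 148 and 156 in not induced plants (-1.79 ± 0.23 SE, adjusted p = 0.000166). Each of these 3 genes was lower on every induced array by more than 2-fold, and each kept its call in all 18 alternatives. AT5G17820, which fell by less, also kept its call in all 18, at 66.8, 59.5 and 62.4, against 137, 113 and 113 in not induced plants (-0.94 ± 0.12 SE, adjusted p = 0.000268).

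The other 5 peroxidase genes each lost their call in at least 2 alternatives. AT4G11290 and AT1G30870 had log2 changes of -1.25 ± 0.23 SE and -1.105 ± 0.21 SE (adjusted p = 0.0072 and 0.00942). AT5G66390 and AT5G51890 had log2 changes of -0.77 and -0.56 (adjusted p = 0.0468 and 0.0264). AT1G34510 read 0.44, 3.35 and 0.57 on the induced arrays, against 11.7, 13.2 and 9.74 on the not induced arrays, so its fall out of expression was at least 2.04-fold (adjusted p = 0.0477). In each of the 5, as in every call at 6 h, the groups did not overlap. AT4G11290 lost its call with the 25S rRNA covariate and with induced replicate 1 alone (adjusted p up to 0.113). AT1G30870 lost its call without induced replicate 3 or not induced replicate 3 (adjusted p up to 0.063), AT5G66390 without any but induced replicate 1 (up to 0.251), AT5G51890 without any induced array or not induced replicate 1 (up to 0.131), and AT1G34510 without any but induced replicate 2 (up to 0.206).

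Expansins, proteins that loosen the cell wall during growth, fell in 3 of 19 probe sets (15.8%, against 0.396% of all probe sets) and rose in 0. EXPA9 read 48.9, 64.3 and 51.8 on the induced arrays, against 144, 104 and 109 on the not induced arrays (log2 change -1.11 ± 0.14 SE, adjusted p = 0.00024), and kept its call in all 18 alternatives. EXPA7, known from root hairs, read 6.71, 11.1 and 9.35, against 27.8, 23.3 and 25.3 in not induced plants (-1.52 ± 0.34 SE, adjusted p = 0.0316). EXPA18, the other root hair expansin, read 20.4, 27.3 and 20.3, against 40.1, 37.6 and 46.2 in not induced plants (-0.87 ± 0.21 SE, adjusted p = 0.0477). The groups were apart in all 3 genes, but EXPA7 and EXPA18 each lost their call without any 1 array other than induced replicate 2 (adjusted p up to 0.105 and 0.198). The median of the 19 expansins was -0.02.

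**Figure D4:**
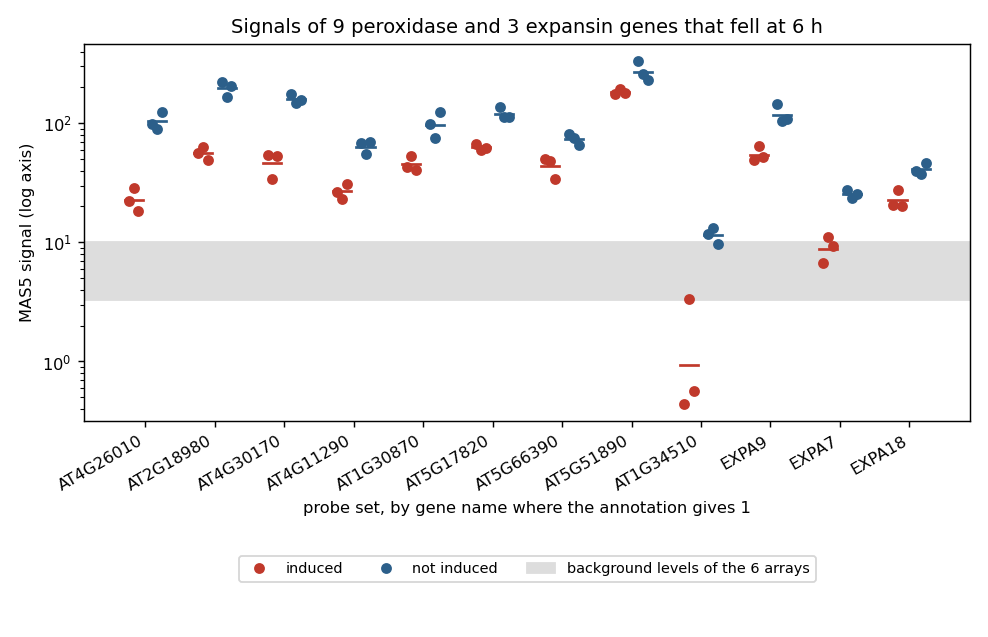
MAS5 signals on a log axis of the 9 peroxidase and 3 expansin genes that fell at 6 h, on the 3 induced (left of each pair) and 3 not induced arrays, with bars at the geometric mean and the range of the background levels in grey. Every induced array lies below every not induced array of the same gene, and AT1G34510 is the gene whose induced signals all lie at or below the background band's level for their array.

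The list of root and root hair genes had 5 measured members, of which EXPA7 and EXPA18 fell (40%, against 0.396% of all probe sets) and 3 did not pass. Both falls were already counted among the expansins. PYK10, an abundant root beta-glucosidase, averaged 3856 ± 417 in induced and 3899 ± 252 in not induced plants (SD, n = 3 each; limma, adjusted p = 0.971). AT5G26260 and AT5G26280 had log2 changes of -0.14 and 0.51 (adjusted p = 0.833 and 0.2). Summed over the 5 genes, the signal was 3967 to 4672 on the induced arrays, against 3975 to 4510 on the not induced arrays, and the groups overlapped. Nearly all of that sum is PYK10, so it says little of the other 4 genes. The 3 measured leaf genes, RCA, LHCB4.1 and LHCB4.2, summed to 12072 to 17557 on the induced arrays, against 14318 to 17442 on the not induced arrays, and 0 of them passed. Both the root and the leaf genes were clear of background, except for EXPA7.

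Further named falls clear of background lay outside these families. AT3G13610, which encodes an enzyme of scopoletin synthesis, a coumarin that roots secrete, read 183, 242 and 164 on the induced arrays, against 462, 421 and 421 on the not induced arrays (log2 change -1.17 ± 0.16 SE, adjusted p = 0.000287). AT3G54040 read 114, 116 and 76.7, against 277, 220 and 255 in not induced plants (-1.31 ± 0.16 SE, adjusted p = 0.00013). These 2 genes kept their calls in all 18 alternatives and were the brightest of the 10 steepest named falls clear of background. AT5G10130, of the Ole e 1 and extensin family, read 19.0, 42.9 and 28.5, against 142, 79.4 and 90.5 in not induced plants (-1.82 ± 0.31 SE, adjusted p = 0.00437), and AT2G47540 of the same family had a log2 change of -1.52 ± 0.23 SE (adjusted p = 0.000878). AT5G10130 lost its call with the 25S rRNA covariate (adjusted p = 0.0778), and AT2G47540 with only the 6 h arrays fitted and with induced replicate 1 alone (up to 0.0651).

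AT1G02360, of the chitinase family, read 30.1, 28.4 and 17.0 on the induced arrays, against 67.4, 66.4 and 72.9 on the not induced arrays (log2 change -1.50 ± 0.28 SE, adjusted p = 0.011). AT2G45750 had a log2 change of -1.20 ± 0.29 SE (adjusted p = 0.0489). Falls to near background were those of AT4G25250, a pectin methylesterase inhibitor gene, at 6.54, 1.095 and 3.82 against 34.95, 19.7 and 21.9 in not induced plants (adjusted p = 0.00914), and of sks15, of the SKU5-similar family, at 8.28, 14.0 and 9.41 against 28.5, 32.5 and 42.8 (adjusted p = 0.0339). In all 4 genes, as in every call at 6 h, the groups did not overlap. AT1G02360 lost its call without induced replicate 3 (adjusted p = 0.0846), AT4G25250 without not induced replicate 1 (0.055), sks15 without any but induced replicate 2 (up to 0.141), and AT2G45750 without any but induced replicate 1 (up to 0.218). All 4 also lost it with the 25S rRNA covariate, and all but AT1G02360 with only the 6 h arrays fitted.

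Of probe sets with no gene name, 258145_at read 1.09, 1.38 and 2.54 on the induced arrays, against 15.7, 9.20 and 21.9 on the not induced arrays, a fall of at least 2.61-fold (adjusted p = 0.013). Probe set 258765_at read 0.47, 1.46 and 2.29, against 18.2, 5.31 and 12.2 in not induced plants, a fall of at least 1.88-fold (adjusted p = 0.0261). All induced signals of both lay at background. The first lost its call without induced replicate 2 or not induced replicate 1 or 3 (adjusted p up to 0.0554), the second without induced replicate 1 or 2 or not induced replicate 1 or 3 (up to 0.124).

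The tetraspanin family moved both ways, with 2 rises (13.3%, against 0.572% of all probe sets) and 1 fall (6.67%, against 0.396%) among 15 probe sets. Beside TET11, TET10 read 87.9, 96.0 and 98.8 on the induced arrays, against 72.5, 53.6 and 58.1 on the not induced arrays (log2 change 0.63 ± 0.12 SE, adjusted p = 0.0145). TET8 fell, at 249, 230 and 176, against 350, 333 and 281 in not induced plants (-0.57 ± 0.11 SE, adjusted p = 0.0135). Both were well expressed in seedlings and their changes were under 2-fold. TET10 lost its call without induced replicate 2 or 3 or not induced replicate 2 or 3 (adjusted p up to 0.0855), and TET8 without induced replicate 3 or not induced replicate 1 or 2 (up to 0.0933).

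Lists for chemical treatment, stress and hormones were short. Of 3 measured detoxification genes 1 fell (33.3%, against 0.396% of all probe sets) and 0 rose. It was GSTU22, a tau class glutathione transferase gene, at 179, 165 and 134 on the induced arrays, against 228, 227 and 256 on the not induced arrays (log2 change -0.58 ± 0.12 SE, adjusted p = 0.0261), and it lost its call without induced replicate 2 or 3 or not induced replicate 1 or 3 (adjusted p up to 0.171). Of 4 touch and wound, 2 jasmonate, 5 abscisic acid and drought, 6 auxin and 6 cytokinin genes, 0 passed. The same was true of 7 WRKY, 22 bZIP and 44 MADS-box probe sets, of 27 for photosystems and light harvesting, and of 53 for UDP-glycosyltransferases. Against 0.967% of all probe sets, counts of 0 in lists of these sizes are near the background. Of 11 autophagy probe sets 0 rose at 6 h, 4 at 12 h and 6 at 24 h, when 0.572%, 2.91% and 4.43% of all probe sets did, and the difference between times was not tested for the family. The 3 stable reference genes had a median log2 change of 0.02 and 0 passed. A p that misses the threshold does not show that these genes did not change. Of 2-fold changes simulated in probe sets picked at random over all signal levels, 49% were recovered. The simulation held no differences between whole arrays, so recovery on the real arrays can differ.

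The arrays of 12 h and 24 h, which the 6 h comparison did not use as samples, gave the course of these changes. Of the 95 rises clear of background, 61 also rose at 12 h, when 2.91% of all probe sets did, and 62 at 24 h, when 4.43% did, with 58 called at all 3 times. Of the 73 falls, 42 also fell at 12 h (1.93% of all) and 46 at 24 h (3.9%), with 40 called at all 3 times. The tests at the 3 times share 1 estimate of the spread per probe set, but no control array. Whether the response differed between times was tested directly, and the difference passed for 44 probe sets between 6 h and 12 h (0.193%, of which 0.149% became more positive and 0.044% more negative) and for 367 between 6 h and 24 h (1.61%, as 0.875% and 0.739%).

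MGH3 went on rising in level, at a mean of 178 ± 29.9, 427 ± 17.0 and 551 ± 98.5 in induced plants at 6 h, 12 h and 24 h, against 2.26 ± 2.18, 2.83 ± 2.79 and 1.54 ± 1.12 in not induced plants (SD, n = 3 each). The difference in its response from 6 h did not pass at 12 h or 24 h (limma, adjusted p = 0.745 and 0.289). TET11 stood at 49.7 ± 17.7, 141 ± 14.1 and 193 ± 14.9 in induced plants, against 3.21 ± 4.74, 3.95 ± 2.99 and 1.99 ± 1.76 in not induced plants. Its difference did not pass either (adjusted p = 0.971 and 0.55). The not induced means of MGH3 and TET11 lay below the background levels at all 3 times. These tests therefore do not show that the responses stayed the same. The induced signal of 252440_at was 356 ± 57.0, 853 ± 41.1 and 857 ± 98.0 at the 3 times, against 5.88 ± 1.89, 6.39 ± 4.87 and 1.47 ± 1.33 in not induced plants. Its response passed as larger at 24 h than at 6 h (adjusted p = 0.0092), but all 3 not induced signals of 24 h lay at or below background, so the size of that difference is not measured.

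Of the 95 rises clear of background, 2 were larger at 12 h and 8 at 24 h by the test of the difference, while 0 were smaller at 12 h and 9 at 24 h. AT4G35110 had log2 changes of 1.102, 2.398 and 2.34 at 6 h, 12 h and 24 h, and its response was larger at both later times (adjusted p of the difference 0.0244 and 0.01). The serine carboxypeptidase-like gene scpl48 had log2 changes of 0.68, 1.54 and 1.51 (0.0261 and 0.0108). AT1G08050 went on to 2.67 and 3.26 (0.26 and 0.0135), so its larger response was called at 24 h and not at 12 h. At 6 h AT4G35110 and scpl48 lost their call with the 25S rRNA covariate and with induced replicate 1 alone, and scpl48 also with only the 6 h arrays fitted (adjusted p up to 0.115 and 0.1345).

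Of the 73 falls clear of background, 3 were larger and 3 smaller at 12 h, and 8 were larger and 8 smaller at 24 h. GSTU22 had log2 changes of -0.58, -1.35 and -1.94 at the 3 times, and its fall was larger at 24 h than at 6 h (adjusted p of the difference 0.000601). AT3G54040, at -1.31, -2.23 and -2.88, and the peroxidase gene AT2G18980, at -1.81, -2.41 and -2.58, also fell further by 24 h (adjusted p of the difference 0.00137 and 0.0312). In the peroxidase family, 12 of 55 members fell and 1 rose at 12 h, when 1.93% of all probe sets fell, and 17 fell and 2 rose at 24 h, when 3.9% fell.

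A smaller set of changes passed at 6 h and at neither later time. Among probe sets clear of background, these were 28 of the 95 rises and 24 of the 73 falls. For 6 and 8 of these the difference from 12 h or 24 h passed as well, against 0.193% and 1.61% of all probe sets. Those with a gene name were AT1G50575, AT2G32640 and GH9C2 among the rises, and RD2, AT2G16630, AT5G51890, AT4G34150, AT4G38550 and AT4G19200 among the falls. The 6 h arrays behind these calls also enter the difference, which favours a smaller later response. A passing difference is therefore no separate support for a change confined to 6 h, and the same holds for the smaller later responses counted above. RD2, a gene first found as desiccation-responsive, read 575, 616 and 565 on the induced arrays at 6 h, against 743, 828 and 832 on the not induced arrays. Its log2 change was -0.45 at 6 h and 0.08 and 0.07 at 12 h and 24 h (adjusted p of the difference 0.0551 and 0.0223). AT4G19200 read 128, 163 and 137 on the induced arrays at 6 h, against 250.4, 227 and 210 on the not induced arrays, and had log2 changes of -0.69, -0.09 and 0.31 (0.156 and 0.00492). AT2G16630 was the 1 of them whose difference passed at 12 h, with log2 changes of -0.52, 0.22 and -0.05 (0.0167 and 0.0692).

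At 6 h RD2 lost its call with only the 6 h arrays fitted, with the 25S rRNA covariate and with induced replicate 1 alone (adjusted p up to 0.142), AT2G16630 with the first 2 of these fits (up to 0.151) and AT4G19200 with the covariate (0.0602). The other 6 of these genes also lost their call without single arrays. AT1G50575 lost its call without induced replicate 2 or 3 or not induced replicate 2 or 3 (adjusted p up to 0.112), AT2G32640 without any but not induced replicate 3 (up to 0.165), AT4G34150 without any but induced replicate 1 (up to 0.181), and AT4G38550 without induced replicate 2 or 3 or not induced replicate 2 (up to 0.0699). GH9C2 and AT5G51890 are given with their families above. Their log2 changes at 6 h, 12 h and 24 h were 0.46, -0.03 and -0.16 for GH9C2, and -0.56, 0.06 and 0.30 for the peroxidase AT5G51890.

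A pair of expressed genes that rose at 6 h were lower in induced plants at 24 h. AT5G38030, a gene of the MATE transporter family, read 167, 187 and 163 on the induced arrays at 6 h, against 144, 117 and 115 on the not induced arrays, and had log2 changes of 0.46, -0.17 and -0.67 at the 3 times. AT1G13650 read 168, 182 and 148, against 93.2, 93.0 and 86.7 in not induced plants, and had log2 changes of 0.86, 0.04 and -0.68. At 24 h both passed as falls (adjusted p = 0.000285 and 0.0256), and the difference from 6 h passed for both (0.000634 and 0.00492). Their calls at 6 h were not held without single arrays, though the changes kept their sign. AT1G13650 lost its call without any 1 of the 6 arrays of 6 h (adjusted p up to 0.109), with log2 changes of 0.79 to 0.94. AT5G38030 lost its call without any but not induced replicate 1 (up to 0.154), with log2 changes of 0.40 to 0.50 in those fits.

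**Figure D5:**
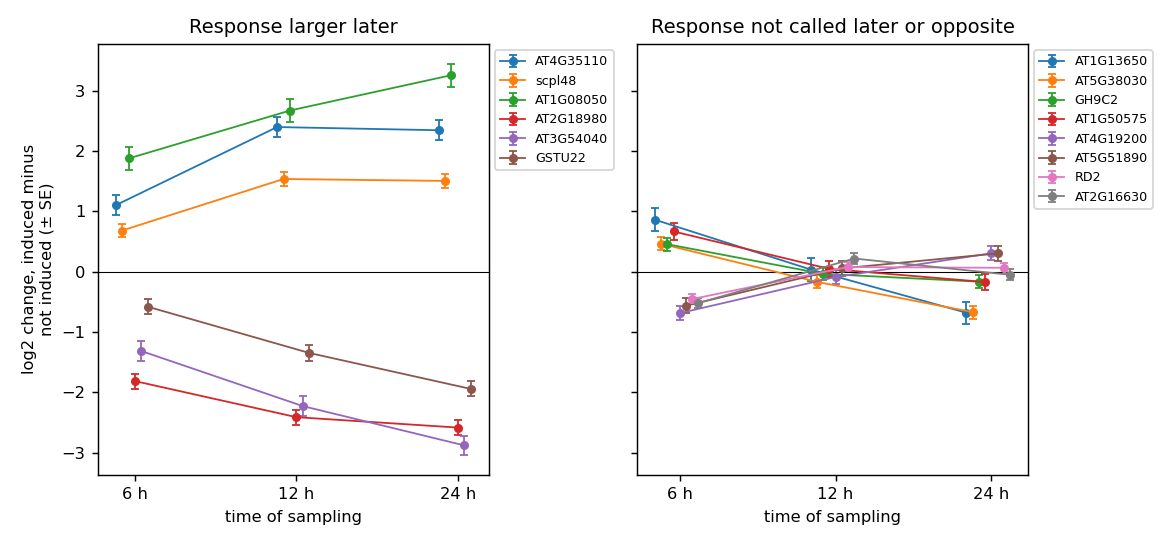
Log2 change, induced minus not induced, with its SE at 6 h, 12 h and 24 h for genes whose response was larger later (left) and for genes that were not called later or had turned to the opposite side (right). On the left AT1G08050 reaches 3.26 and AT3G54040 -2.88 at 24 h, and on the right AT1G13650 and AT5G38030 go below 0 at 24 h.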

How the data were processed

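RNA of 18 seedling samples was hybridised to ATH1 arrays. The authors' deposited intensity values are linear MAS5 signals from GCOS (per the submitters' processing notes; version not given in the sources used here). With 2% of probe sets trimmed at either end, each array averaged 100.01, to which the authors had therefore scaled it. The 64 control probe sets among 22810 were not tested. Names came from the platform annotation and RefSeq (TAIR10.1), which gave 13513 probe sets 1 gene, 503 several and 8730 none.

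Log2 signals were fitted with limma 3.58.1 in R 4.3.3, a mean for each of the 6 groups of 18 arrays, eBayes with a trend on intensity, 12 residual degrees of freedom, and Benjamini-Hochberg adjustment over all probe sets at a threshold of 0.05. Tables and figures used Python 3.11.15, pandas 2.3.3 and matplotlib 3.10.9. No filter was set on signal. On simulated data 49% of 2-fold and 73% of 4-fold changes were recovered, and 5 unchanged probe sets were called. The simulation drew independent noise for each probe set, so these values are not error rates of the real arrays. The number of arrays limits precision.

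Genes named were the 10 steepest rises and falls clear of background, up to 8 per direction with 1 group at background, up to 4 per list or family, genes that differed most between times, the sperm cell and DUO1 target lists, and 2 probe sets per direction without a gene. Every called peroxidase and expansin, and genes called at 6 h alone, were added after values were seen. Members and lists were chosen with earlier results of these data known. Arrays were not paired by replicate number in the main fit. Correlations of same-numbered deviations at 6 h were 0.10, -0.02 and -0.13, which cannot show whether the numbers mark shared cultures. Alternatives covered scaling, filter, offset, values at background, trend, weights, block, covariates, arrays fitted and single arrays.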

Additional observations from a re-analysis of the deposited data

Results flagged for a closer look

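The results in this section are differences in the response between 6 h and a later time that passed limma's test of the difference, as log2 values, later minus 6 h. Between 12 h and 6 h 44 probe sets passed, and between 24 h and 6 h 367. At 12 h, among the genes named, the response was more positive for AT4G35110 by 1.296, for scpl48 by 0.85 and for AT2G16630 by 0.74. For AT4G09410 the difference was -7.62, with all arrays of both groups at or near background, so it is not a measured change.

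At 24 h the response was more positive than at 6 h by 1.38 for AT1G08050, 1.24 for AT4G35110, 0.99 for AT4G19200, 0.87 for AT5G51890, 0.82 for scpl48, 0.80 for AT4G34150, 0.80 for AT4G38550 and 0.52 for RD2. For AT1G33770 it was 4.96, which rests on signals at background at 6 h, and for 252440_at 3.61, which rests in part on not induced signals at background at 24 h, so neither size is measured. It was more negative for AT3G54040 (-1.56), AT1G13650 (-1.54), GSTU22 (-1.36), AT5G38030 (-1.13), AT1G50575 (-0.84), AT2G18980 (-0.77), AT2G32640 (-0.66) and GH9C2 (-0.62). The not induced arrays of 6 h, which enter every difference, had higher 25S rRNA signals than those of 12 h and 24 h, and the part of this in the differences was not tested gene by gene.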

How the results depend on the processing

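At 6 h the count of 220 was 139 with the replicate block, 137 with the hybridisation controls as covariate, 67 with only the 6 h arrays, 58 with the 25S rRNA covariate and 126 with induced replicate 1 alone, the last 2 chosen after seeing the data. It stayed within 1.5 times under the scaling, filter, offset, background, trend and weight alternatives (152 to 279), and was 98 to 262 without 1 array. The count of 44 for 12 h against 6 h was 82 with the filter on mean signal, 76 with the offset, 147 with signals raised to background, 6 without the intensity trend, 101 with array weights, 9 with the replicate block, 13 with the 25S rRNA covariate and 20 to 65 without 1 array. The count of 367 for 24 h against 6 h was 88 without the trend, 583 with array weights, 172 with the replicate block, 94 with the hybridisation controls, 203 with induced replicate 1 alone and 136 to 623 without 1 array. The cause of these shifts was not tested, except that fits of fewer arrays have fewer degrees of freedom.

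Of 63 named probe sets called at 6 h, 12 stayed called under each alternative run on them, 23 lost it in 1 to 5 and 28 in more than 5. They were MGH3, 249468_at, 252440_at, AT1G15190, AT1G08050, AT2G18980, AT4G26010, AT4G30170, AT5G17820, AT3G13610, AT3G54040 and EXPA9. Of the 63, 22 lost it with the hybridisation controls and 44 with the 25S rRNA covariate. With induced replicate 1 alone, calls can be lost at an unchanged size. AT2G04600, AT3G12000 and AT4G09410 turned to -0.0504, -0.0696 and -0.11 with signals raised to background. The labels do not say whether arrays with the same replicate number belong together, and the block took the call from 19 of the 63. With 1 common median the split at 6 h was 89 up and 133 down, and with quantile normalization 98 and 94.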
